A study of Mus musculus with 6 samples.

Results

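The 10 genes described here are the CXC chemokine genes Cxcl1, Cxcl2, Cxcl3, Ppbp, Pf4, Cxcl9, Cxcl10, Cxcl11, Cxcl14 and Cxcl16. They were chosen by symbol, as a gene family, among the 55421 genes of the count table. All 10 were counted in every library, with between 119 and 94404 counts, and all 10 passed the expression filter that left 14469 genes for the test. The libraries were made from tumor-associated macrophages (TAMs), labelled CD11b+F4/80+ cells, that were collected on day 15 from mice implanted with the M17 tumor, which the study's methods name as the fibrosarcoma line MC17-51. RNA-seq was done on 3 libraries from Pdcd1f/f mice and 3 from Pdcd1f/fLysMcre mice. Every mouse carried the floxed Pdcd1 allele, which encodes the inhibitory receptor PD-1, and the Pdcd1f/fLysMcre mice also carried Cre under the lysozyme promoter, which acts in macrophages, monocytes and neutrophils. The mice were young adults at implantation per the methods. Whether a library holds RNA of 1 mouse or of several is not given in the sources used here, so the p-values measure the spread between these libraries.

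CXC chemokines are small secreted proteins named for the single residue between a pair of conserved cysteines. Members with a glutamate-leucine-arginine (ELR) motif before the cysteines, such as Cxcl1, Cxcl2 and Cxcl3, attract neutrophils through Cxcr2, and their transcription is driven by NF-κB after signals such as IL-1 or TNF. Cxcl9, Cxcl10 and Cxcl11 are induced by interferons and attract activated T and NK cells through Cxcr3. Ppbp and Pf4 are best known from platelet granules, although macrophages can transcribe them, and Cxcl16 is a membrane-bound ligand of Cxcr6.

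Library totals ranged from 41833823 to 51417209 counts. The macrophage genes Csf1r (60922 to 66734 counts in Pdcd1f/f and 53373 to 58760 in Pdcd1f/fLysMcre libraries) and Cd68 (47939 to 54691 and 52271 to 56675) were high in every library, while the neutrophil gene Ly6g had 0 to 3 counts. Lyz2, the locus that carries Cre, had 189889 to 242873 counts in the Pdcd1f/f and 418 to 503 in the Pdcd1f/fLysMcre libraries, which separates them as labelled. Lyz1 had 115 to 181 counts in the Pdcd1f/f and 3521 to 4007 in the Pdcd1f/fLysMcre libraries. The near loss of Lyz2 transcript went with genotype, so it and the deletion of Pdcd1 cannot be told apart for any gene below. Pdcd1 had 10 to 15 and 7 to 16 counts, too few to show its deletion. The summed counts of 4 Y-linked genes were 1411 to 2064 and 6374 to 7595, and those of Xist 15812 to 28588 and 8675 to 14198, so sex and genotype cannot be told apart for any gene below. Every library held both kinds of transcript, as RNA pooled from male and female mice would. The methods state that both sexes were used in equal numbers. If libraries were pools, the spread between them would be smaller than that between mice, which was not tested. Levels followed the GC content of the genes to a different degree in each library. Against the mean of all 6 libraries, log2 CPM moved per 10 percentage points of GC by −0.20 in Pdcd1f/fLysMcre replicate 2, −0.11 in Pdcd1f/f replicate 1, −0.05 in Pdcd1f/fLysMcre replicate 1, 0.04 in Pdcd1f/fLysMcre replicate 3, 0.13 in Pdcd1f/f replicate 2 and 0.19 in Pdcd1f/f replicate 3. The libraries thus formed a gradient that ran partly with genotype. The lowest 2, here called the low-GC libraries, were left out together in an alternative fit, which did not remove the trend. Log2 fold changes fell with GC at a Spearman rho of −0.364 with all libraries, −0.403 without the low-GC libraries and −0.0129 with offsets for GC and length (across genes, which are not replicates). Median GC of the genes called without the low-GC libraries was 44.2% for those higher and 54.5% for those lower. Values of that fit are given for the 10 genes and for each gene list whose count of calls it changes.

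Among the 10 genes, Cxcl3 and Ppbp were higher and Cxcl9 was lower in TAMs of Pdcd1f/fLysMcre mice, by the quasi-likelihood test of edgeR at an adjusted p under 0.05, with Benjamini-Hochberg adjustment over all 14469 genes. Cxcl3 rose 1.84-fold, Ppbp rose 1.77-fold and Cxcl9 fell to 0.595 of its level. The other 7 did not pass. Over all genes tested 5.43% passed, 2.42% higher and 3.01% lower. The median log2 fold change of the 10 genes was 0.02, against −0.0026 over all genes, and the median size of the change was 0.16 on the log2 scale in the 10 genes and over all genes alike. The 3 libraries of one genotype lay entirely above or below those of the other for 6 of the 10, with Cxcl2, Cxcl3, Ppbp and Cxcl10 higher and Pf4 and Cxcl9 lower, where 27.5% of all genes tested did so. Since these are sorted cells measured in bulk, fewer cells of one kind and less RNA per cell cannot be told apart.

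**Figure D1:**
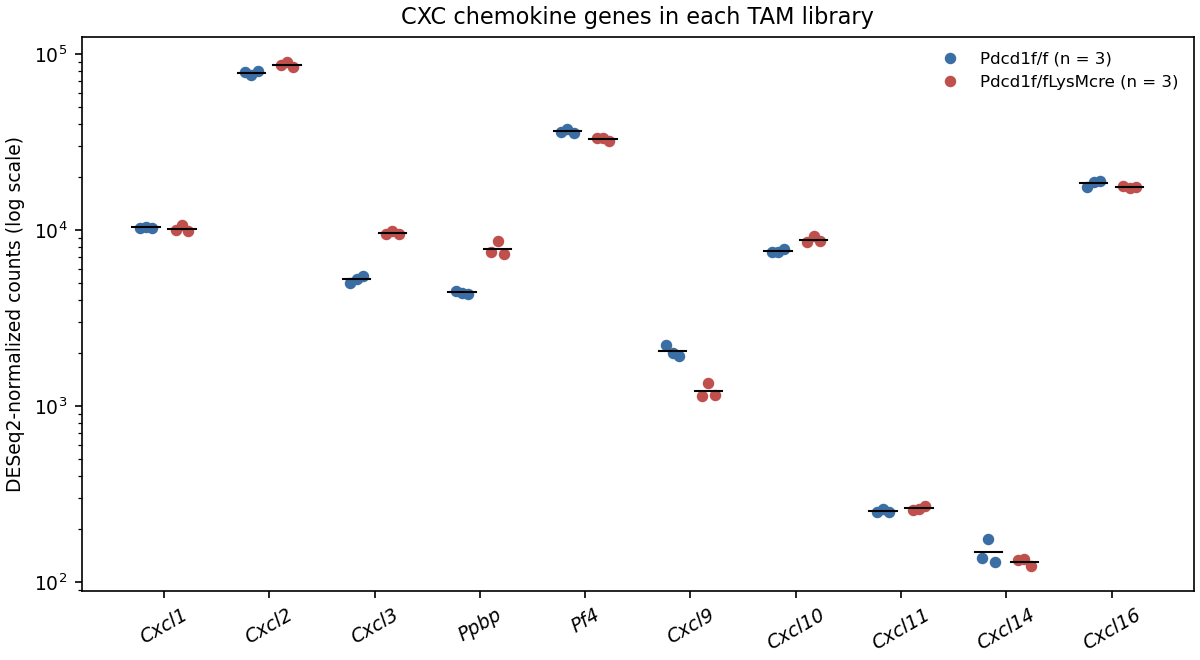
Normalized counts (log scale) of the 10 CXC chemokine genes in each of the 6 TAM libraries, with 3 Pdcd1f/f libraries in blue, 3 Pdcd1f/fLysMcre libraries in red and a bar at each mean. The points of Cxcl3 and Ppbp lie higher in red, those of Cxcl9 lie lower in red, and those of Cxcl1, Cxcl11, Cxcl14 and Cxcl16 overlap.

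The genes span a wide range of levels. Levels of different genes were compared as CPM, counts scaled by the TMM-adjusted library total, per kb of merged exon length. In Pdcd1f/f TAMs the order was Pf4 with 1068 ± 27.6 CPM per kb (SD, n = 3), Cxcl2 with 801 ± 18.2, Cxcl16 with 129 ± 5.81, Cxcl1 with 117 ± 1.12, Ppbp with 86.5 ± 1.74, Cxcl10 with 71.5 ± 1.72, Cxcl3 with 31.8 ± 1.35, Cxcl9 with 14.4 ± 1.04, Cxcl14 with 1.71 ± 0.289 and Cxcl11 with 1.41 ± 0.0376. No neighbours in this order had overlapping ranges over the 3 libraries. In Pdcd1f/fLysMcre TAMs Ppbp moved from the fifth to the third place with 153 ± 14.4 CPM per kb, above Cxcl16 with 123 ± 2.16 and Cxcl1 with 115 ± 4.62. The rest kept their places, and only the last pair overlapped, Cxcl14 with 1.52 ± 0.0693 and Cxcl11 with 1.47 ± 0.0442. By mean level over all libraries Pf4 ranked 23 and Cxcl2 ranked 34 among 14454 genes, whereas Cxcl14 and Cxcl11 ranked 9417 and 9622.

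Pf4 and Cxcl2 together made up most of the summed level of the 10 genes. Pf4 held 46.0% ± 0.967 (SD, n = 3) of the summed CPM per kb in Pdcd1f/f and 40.4% ± 0.573 in Pdcd1f/fLysMcre TAMs, and Cxcl2 held 34.5% ± 0.955 and 37.0% ± 0.207. Ppbp went from 3.72% ± 0.0796 to 6.37% ± 0.420, and Cxcl3 from 1.37% ± 0.0562 to 2.43% ± 0.0369. Cxcl9 went from 0.621% ± 0.0464 to 0.356% ± 0.0265. These orders depend on the length used. Per kb of coding sequence Cxcl2 came first in Pdcd1f/f TAMs with 5504 ± 125 CPM per coding kb and Pf4 second with 2438 ± 62.9, since more of Cxcl2 is untranslated. On that scale Ppbp was seventh in both genotypes, with 276 ± 5.55 and 489.8 ± 46.0 CPM per coding kb, so its move to the third place is not seen there. Cxcl3 instead went from the sixth place with 370.4 ± 15.7 to the fourth with 680.0 ± 17.4, above Cxcl10 and Cxcl16.

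The ELR genes Cxcl1, Cxcl2 and Cxcl3 and the platelet-type genes Ppbp and Pf4 lie on the plus strand of chromosome 5 of GRCm38. Ppbp lies at chr5:90768518-90770063, Pf4 at chr5:90772435-90773383, Cxcl3 at chr5:90786103-90789600, Cxcl1 at chr5:90891241-90893115 and Cxcl2 at chr5:90903871-90905938. Upstream of the start sites given by RefSeq (GRCm38.p6), Cxcl1, Cxcl2 and Cxcl3 each hold the same 11-base run GGGAATTTCCC, which contains the NF-κB (κB) consensus in overlapping placements. It lies 73 to 63 bases before the start of Cxcl3, 71 to 61 before that of Cxcl1 and 97 to 87 before that of Cxcl2. For Cxcl2 the RefSeq start lies inside the gene as placed above, since the 250 bases before it end at chr5:90903898. Its distance is therefore larger than it would be from chr5:90903871. The stretches from 130 to 31 bases before the start are shown, with the run in capitals, because these genes share it while only Cxcl3 among them passed the test. They cover chr5:90785971-90786070, chr5:90891115-90891214 and chr5:90903769-90903868 in the order printed, on the plus strand.
Cxcl3: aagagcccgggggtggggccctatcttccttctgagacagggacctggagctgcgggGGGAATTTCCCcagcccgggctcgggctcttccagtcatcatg
Cxcl1: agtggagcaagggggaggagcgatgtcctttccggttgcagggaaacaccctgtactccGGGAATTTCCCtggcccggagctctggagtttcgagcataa
Cxcl2: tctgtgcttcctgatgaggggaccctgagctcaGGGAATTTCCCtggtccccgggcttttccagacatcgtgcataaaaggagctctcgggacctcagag

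The exact run occurred in 12 of 32851 promoters of 250 bases (0.0365%), and any match to the κB consensus on either strand in 7.25% of them. A match describes the letters only.

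Cxcl3, a ligand of Cxcr2 that attracts neutrophils, had 5018, 5260 and 5460 normalized counts in the Pdcd1f/f and 9447, 9904 and 9503 in the Pdcd1f/fLysMcre libraries. The lowest library of the second group was far above the highest of the first. The mean rose from 5246 ± 221 (SD, n = 3) to 9618 ± 249, which is 0.88 in log2 fold change (standard error, SE, 0.06, edgeR adjusted p = 2.84e-05) or a fold of 1.84 with a 95% interval of 1.67 to 2.02.

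Cxcl2, the neutrophil attractant also known as MIP-2, had 79143, 75822 and 79718 normalized counts in the Pdcd1f/f and 86120, 89909 and 83896 in the Pdcd1f/fLysMcre libraries. The groups did not overlap, but the difference was small, with a log2 fold change of 0.15 (95% interval 0.02 to 0.28, SE 0.06), and it did not pass with an adjusted p of 0.151 from edgeR. Without both low-GC libraries, it passed with an adjusted p of 0.0369 at a log2 fold change of 0.13, in a fit in which 26.2% of all genes passed, while with GC and length offsets it did not pass (0.09, adjusted p = 0.141).

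Cxcl1, the neutrophil attractant also known as KC, had 10309, 10392 and 10285 normalized counts in the Pdcd1f/f and 9997, 10649 and 9882 in the Pdcd1f/fLysMcre libraries. The groups overlapped. Its log2 fold change was −0.02 with a 95% interval of −0.15 to 0.11 (adjusted p = 0.869 from edgeR), so the interval holds no change beyond 1.08-fold up or a fall to 0.902.

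Cxcl3, Cxcl2 and Cxcl1, which carry the same κB run, had log2 fold changes of 0.88, 0.15 and −0.02. To compare members within a library without any scaling between libraries, ratios of raw counts were taken for the 7 pairs of genes of the same class, a choice made after the changes of the single genes had been seen. The libraries of the genotypes did not overlap in any of the 7 pairs, of which 5 hold Cxcl3, Ppbp or Cxcl9, and 28.2% of all pairs among the 13164 tested genes with at least 10 counts in every library did the same. Each gave p = 0.1 in a two-sided exact permutation test on the log ratio, adjusted p = 0.1 over the 7 pairs, which is the smallest that 3 libraries against 3 allow. There were 1.97 ± 0.0854 counts of Cxcl1 per count of Cxcl3 in Pdcd1f/f TAMs (SD, n = 3) and 1.06 ± 0.0176 in Pdcd1f/fLysMcre TAMs. The ratio of Cxcl2 to Cxcl3 was 14.9 ± 0.736 and 9.01 ± 0.156. The ratio of Cxcl1 to Cxcl2 moved less, from 0.132 ± 0.00433 to 0.117 ± 0.00122. Reads of 42 bases could not always separate these genes, as 134 stretches of that length were shared by Cxcl2 and Cxcl3, 6.25% of those of Cxcl2 and 3.76% of those of Cxcl3. Cxcl3 shared 4.65% with any other gene, and Cxcl1 shared none.

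**Figure D2:**
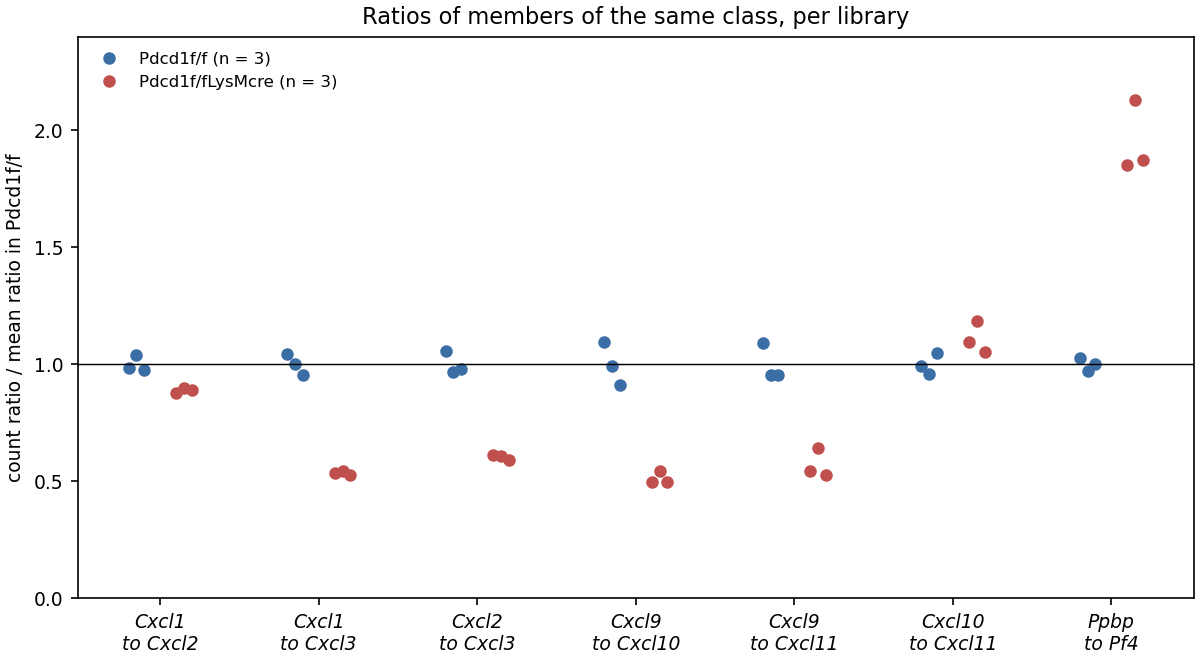
Ratio of raw counts for 7 pairs of genes of the same class in each library, divided by the mean ratio of the 3 Pdcd1f/f libraries (blue) so that 1 is the control mean, with the 3 Pdcd1f/fLysMcre libraries in red. Ratios of Cxcl1 or Cxcl2 to Cxcl3 and of Cxcl9 to Cxcl10 or Cxcl11 lie lower in red, and the ratio of Ppbp to Pf4 lies higher.

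Ppbp encodes pro-platelet basic protein, which proteases trim to the neutrophil attractant Cxcl7. It had 4518, 4408 and 4342 normalized counts in the Pdcd1f/f and 7481, 8676 and 7328 in the Pdcd1f/fLysMcre libraries. All 3 libraries with Cre were above all 3 without, and Pdcd1f/fLysMcre replicate 2 was the highest. The mean rose from 4422 ± 89.2 (SD, n = 3) to 7828 ± 738, which is 0.83 in log2 fold change (SE 0.07, edgeR adjusted p = 0.000202) or a fold of 1.77 with a 95% interval of 1.58 to 1.99. Without both low-GC libraries the log2 fold change was 0.76.

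Pf4, platelet factor 4, starts 2.37 kb beyond the end of Ppbp and did not rise with it. It had 36128, 37243 and 35725 normalized counts in the Pdcd1f/f and 33246, 33471 and 32186 in the Pdcd1f/fLysMcre libraries, which were all lower. The difference was small, with a log2 fold change of −0.14 (95% interval −0.27 to −0.01, SE 0.06), and did not pass with an adjusted p of 0.166 from edgeR. It passed with offsets that correct GC content and length (log2 fold change −0.12, adjusted p = 0.0235, where 17.9% of all genes passed) and without both low-GC libraries (−0.16, adjusted p = 0.0133). The ratio of Ppbp to Pf4 counts was 0.125, 0.118 and 0.122 in the Pdcd1f/f and 0.225, 0.259 and 0.228 in the Pdcd1f/fLysMcre libraries. Neither gene shared a 42-base stretch with another gene, and the 250 bases upstream of neither held any of the motifs searched.

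Transcripts that mark platelets and megakaryocytes were close to absent. Of 10 such genes, those with at most 3 counts in every library included Gp1bb, Gp6, Gp9 and Tubb1, with Gp1bb at 0 throughout. The 10 genes summed to 1.10 to 1.32 CPM in Pdcd1f/f and 0.793 to 1.16 CPM in Pdcd1f/fLysMcre libraries, and 0 of the 3 that were tested passed in edgeR, DESeq2 or limma-trend, with 1, Treml1, at an unadjusted p under 0.05 in edgeR. Those tested were Itga2b with 13 to 27 counts in a library, Treml1 with 6 to 19 and Clec1b with 11 to 21.

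Cxcl9, Cxcl10 and Cxcl11 lie side by side on the minus strand of chromosome 5, 1415 kb from Cxcl2. Cxcl9 lies at chr5:92321347-92328079, Cxcl10 at chr5:92346638-92348889 and Cxcl11 at chr5:92359544-92365485. The annotation gives Cxcl11 as a polymorphic pseudogene, a gene whose reading frame is broken in the reference strain. The upstream regions of Cxcl9 and Cxcl10 are shown because the changes of these adjacent genes had opposite signs. Both were searched on both strands for the κB consensus, for the core of the interferon-stimulated response element (ISRE), GAAANNGAA, and for the interferon-gamma activated site (GAS), TTCNNNGAA. The stretches run from 250 to 31 bases before the RefSeq starts, chr5:92328110-92328329 for Cxcl9 and chr5:92348920-92349139 for Cxcl10, on the minus strand of GRCm38.p6, with the matches in capitals.
Cxcl9: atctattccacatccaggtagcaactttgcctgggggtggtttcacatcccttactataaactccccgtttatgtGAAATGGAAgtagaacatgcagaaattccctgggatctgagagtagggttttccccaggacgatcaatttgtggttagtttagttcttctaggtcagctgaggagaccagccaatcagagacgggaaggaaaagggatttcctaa
Cxcl10: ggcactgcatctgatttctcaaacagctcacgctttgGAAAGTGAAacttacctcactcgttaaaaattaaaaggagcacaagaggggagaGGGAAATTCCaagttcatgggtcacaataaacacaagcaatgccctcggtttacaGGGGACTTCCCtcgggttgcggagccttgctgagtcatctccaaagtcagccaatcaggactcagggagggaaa

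The ISRE core lay 175 to 167 bases before the start of Cxcl9 and 213 to 205 bases before that of Cxcl10. Cxcl10 also held 3 matches to the κB consensus, at 159 to 150 bases and, as an overlapping pair, from 104 bases before its start, while these letters were not found in the 250 bases before Cxcl9. Neither held the GAS letters. Of all promoters 7.13% held the ISRE core and 7.02% the GAS letters.

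Cxcl9, a ligand of Cxcr3 that depends strongly on interferon-γ, had 2219, 2011 and 1927 normalized counts in the Pdcd1f/f and 1138, 1359 and 1160 in the Pdcd1f/fLysMcre libraries. All 3 libraries with Cre were lower than all 3 without. The mean fell from 2052 ± 151 (SD, n = 3) to 1219 ± 122, which is −0.75 in log2 fold change (SE 0.09, edgeR adjusted p = 0.00122) or a fold of 0.595 with a 95% interval of 0.518 to 0.683.

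Cxcl10, a ligand of Cxcr3 that responds to interferons of type I and to NF-κB, had 7485, 7487 and 7828 normalized counts in the Pdcd1f/f and 8496, 9271 and 8637 in the Pdcd1f/fLysMcre libraries. The groups did not overlap, and the direction was opposite to that of Cxcl9. The log2 fold change of 0.21 (95% interval 0.08 to 0.35, SE 0.06) did not pass, with an adjusted p of 0.0693 from edgeR. It did pass in 6 of 20 alternatives, among them DESeq2 (adjusted p = 0.0244, where 12% of all genes passed), the offsets (0.00789), the fit without both low-GC libraries (log2 fold change 0.16, adjusted p = 0.0224) and the fit without Pdcd1f/f replicate 1 (0.0460, where 21.6% of all genes passed). Art3 overlaps Cxcl10 on the other strand and shares 3.95% of its 42-base stretches, but had 102 counts over all libraries against 49621 for Cxcl10.

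Cxcl11 had 250.4, 259 and 249 normalized counts in the Pdcd1f/f and 258, 260.0 and 272 in the Pdcd1f/fLysMcre libraries, with overlapping groups. Its log2 fold change was 0.06 with a 95% interval of −0.17 to 0.30 (adjusted p = 0.761 from edgeR), and its sign turned with the offsets. Of its 42-base stretches 40.9% also occur in other genes, 1541 of these 1551 in Gm2673, which overlaps it on the other strand and had 1 count over all libraries against 1558 for Cxcl11. Only 0.818% of its stretches occur in genes elsewhere. How reads in the overlap were assigned is not given in the sources used here, so its level is uncertain. The ratio of Cxcl9 to Cxcl10 counts was 0.270 ± 0.0252 (SD, n = 3) in Pdcd1f/f and 0.138 ± 0.00719 in Pdcd1f/fLysMcre TAMs. The ratio of Cxcl9 to Cxcl11 was 8.12 ± 0.640 and 4.63 ± 0.521, and that of Cxcl10 to Cxcl11 was 30.1 ± 1.31 and 33.4 ± 2.02.

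The last 2 genes lie apart from the clusters, and neither changed past the threshold. Cxcl14, a chemokine known mainly from epithelium, lies at chr13:56288643-56296551 on the minus strand. It had 137, 175 and 130.3 normalized counts in the Pdcd1f/f and 133, 135 and 124 in the Pdcd1f/fLysMcre libraries, with overlapping groups. Its log2 fold change of −0.17 had a 95% interval of −0.52 to 0.18 (adjusted p = 0.539 from edgeR), the widest of the 10. Pdcd1f/f replicate 2 was the highest library, and without it the log2 fold change was −0.03. Its upstream 250 bases held an ISRE core match at 172 to 164 and a GAS match at 191 to 183 bases before the start. Cxcl16, which is shed from the membrane by Adam10, lies at chr11:70453983-70459984 on the minus strand. It had 17445, 18618 and 18994 normalized counts in the Pdcd1f/f and 17770, 17189 and 17629 in the Pdcd1f/fLysMcre libraries, with overlapping groups. Its log2 fold change was −0.06 with a 95% interval of −0.20 to 0.07 (adjusted p = 0.546 from edgeR). Zmynd15 overlaps it on the other strand and shares 17.6% of its 42-base stretches, with 14148 counts over all libraries against 108002 for Cxcl16. The library kit keeps strand, but the strand setting of the counting is not given in the sources used here.

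**Figure D3:**
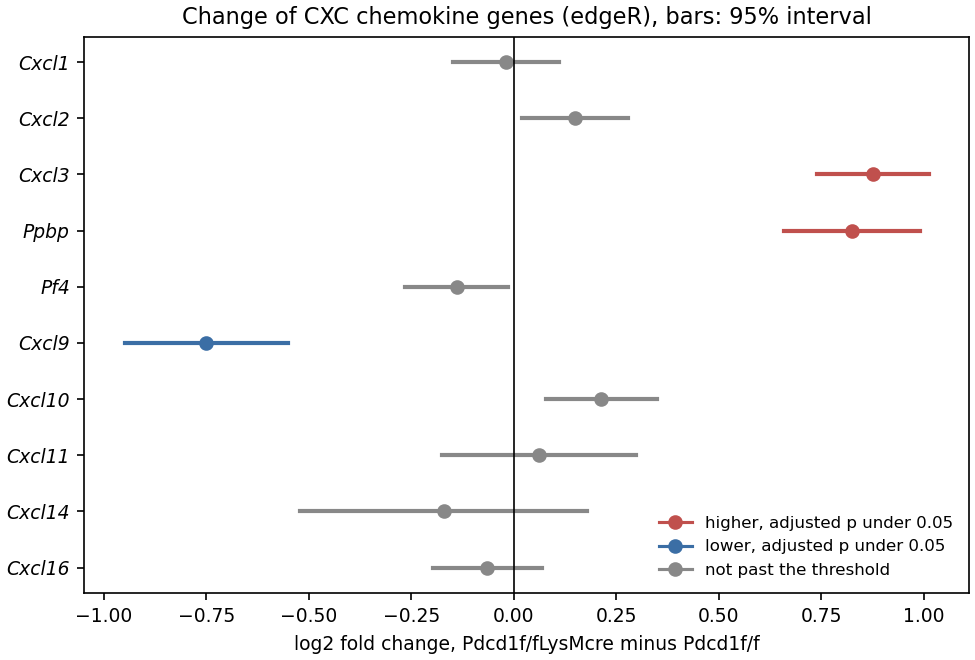
Log2 fold change of each CXC chemokine gene in Pdcd1f/fLysMcre against Pdcd1f/f TAMs from edgeR, with points for the estimate and lines for the 95% interval, red for higher and blue for lower at an adjusted p under 0.05. Cxcl3 at 0.88 and Ppbp at 0.83 are the red points, Cxcl9 at −0.75 is the blue point, and the other 7 are grey.

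When both low-GC libraries were left out, the log2 fold change was 0.82 for Cxcl3 and −0.78 for Cxcl9, and both passed. Cxcl1 at −0.06, Cxcl11 at 0.06, Cxcl14 at −0.25 and Cxcl16 at −0.09 did not pass there (adjusted p = 0.377, 0.784, 0.349 and 0.140 from edgeR).

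Neighbouring genes differed in their calls. In the first cluster Cxcl3 and Ppbp rose while Pf4, which lies between them, did not pass. Cxcl1 lies 101.6 kb beyond Cxcl3, and Cxcl2 lies 10.8 kb beyond Cxcl1. Within 200 kb of the cluster 3 other genes were tested, and only Ereg, the growth factor epiregulin, passed, from 980 ± 188 (SD, n = 3) to 1600.0 ± 279 normalized counts (log2 fold change 0.71, adjusted p = 0.0215 from edgeR). Ereg passed without Pdcd1f/f replicate 1 (adjusted p = 0.000593) or Pdcd1f/fLysMcre replicate 3 (0.0248) and not without any of the other 4 libraries (0.0662 to 0.111). Around Cxcl9, Cxcl10 and Cxcl11 6 other genes were tested, where 5.43% of all genes tested passed. Uso1, a factor of vesicle transport, had a log2 fold change of 0.35 (adjusted p = 0.0314), Sdad1 one of 0.34 (0.0207) and Scarb2, a lysosomal membrane protein, one of −0.27 (0.0215), all from edgeR. None of these 3 passed without Pdcd1f/f replicate 2 or 3 or Pdcd1f/fLysMcre replicate 1 or 2 (adjusted p 0.0510 to 0.167), and Uso1 and Scarb2 also not without Pdcd1f/fLysMcre replicate 3 (0.0517 and 0.0649).

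**Figure D4:**
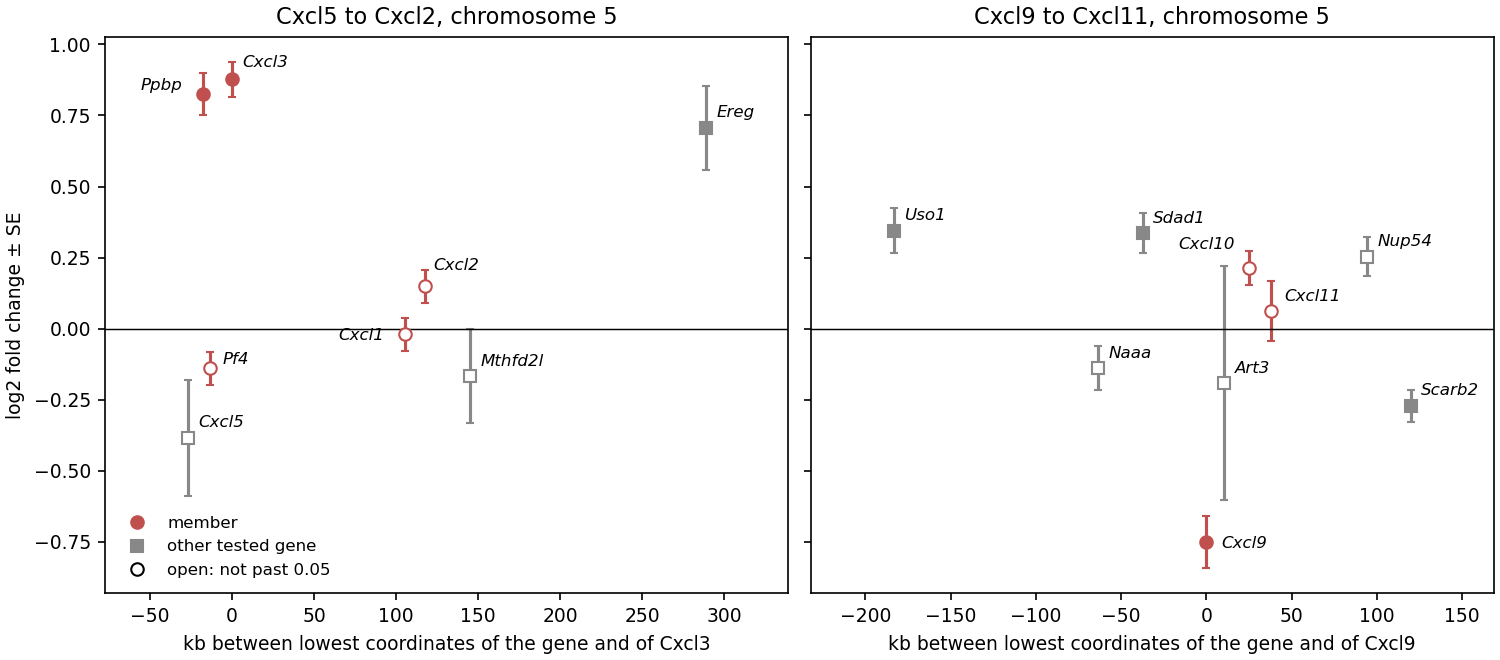
Log2 fold change ± standard error of the tested genes in both chromosome 5 clusters against their distance in kb from Cxcl3 (left) and Cxcl9 (right), with circles for CXC chemokine genes called members, squares for other genes and filled symbols for an adjusted p under 0.05. Ppbp and Cxcl3 at 0.83 and 0.88 stand on both sides of Pf4 at −0.14, and Cxcl9 at −0.75 stands beside Cxcl10 at 0.21.

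Of the other CXC ligands, Cxcl12, Cxcl15 and Cxcl17 had at most 3 counts in every library. Cxcl13, which attracts B cells through Cxcr5, had 112, 52 and 87 counts in the Pdcd1f/f and 33, 17 and 40 in the Pdcd1f/fLysMcre libraries. These groups did not overlap, and the change was −1.58 on the log2 scale (SE 0.33, edgeR adjusted p = 0.0209). The call was lost without Pdcd1f/f replicate 3 (adjusted p = 0.0676) and without Pdcd1f/fLysMcre replicate 1 (0.0933) or 2 (0.0668). Cxcl5, an ELR gene next to Ppbp, had 150, 118 and 132 counts and 82, 143 and 108 counts, with overlapping groups (log2 fold change −0.38, adjusted p = 0.274 from edgeR), and without both low-GC libraries it was at −0.61 (adjusted p = 0.0359), in a fit where 26.2% of all genes passed.

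Among 8 receptors of these ligands, 4 were tested, 1 was higher and 1 was lower. Over all genes tested 2.42% were higher and 3.01% lower. Cxcr4, the receptor of Cxcl12, fell from 19822 ± 247 (SD, n = 3) to 16043 ± 841 normalized counts (log2 fold change −0.30, adjusted p = 0.0185 from edgeR). Ackr3, which removes Cxcl11 and Cxcl12 without signalling through G proteins, rose from 298 ± 25.9 to 418 ± 46.5 (0.49, adjusted p = 0.0409). Both calls held without Pdcd1f/f replicate 1 or Pdcd1f/fLysMcre replicate 2 and were lost without each of the other 4 libraries (adjusted p 0.0667 to 0.102 for Cxcr4 and 0.0637 to 0.198 for Ackr3). Cxcr3, the receptor of Cxcl9, Cxcl10 and Cxcl11, had 94, 85 and 54 counts against 57, 34 and 59, a log2 fold change of −0.75 that did not pass (adjusted p = 0.126). Cxcr2, the receptor of the ELR ligands, had 93, 79 and 58 counts against 82, 92 and 81 (0.03, adjusted p = 0.938). Cxcr1, Cxcr5, Cxcr6 and Ackr1 were under the expression filter.

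The signals that induce these genes were looked at through lists of pathway genes. In the interferon list 13 of 14 genes were tested, 1 was higher and 2 were lower, with a median log2 fold change of 0.01. Over all genes tested 2.42% were higher and 3.01% lower. Ifngr1, a chain of the interferon-γ receptor, fell from 12022 ± 216 (SD, n = 3) to 9889 ± 470 normalized counts (log2 fold change −0.28, adjusted p = 0.0254 from edgeR). Irf1, a transcription factor of Cxcl9 and other interferon-γ targets, fell from 2827 ± 232 to 2200.0 ± 213 (−0.36, adjusted p = 0.0446). Jak2, a kinase of the receptor, rose from 4446 ± 265 to 5298 ± 103 (0.25, adjusted p = 0.0484). Ifng itself had at most 4 counts in a library. The call of Ifngr1 held without Pdcd1f/f replicate 1 or Pdcd1f/fLysMcre replicate 2, that of Irf1 without Pdcd1f/f replicate 1 or Pdcd1f/fLysMcre replicate 3, and that of Jak2 only without Pdcd1f/f replicate 1. In the remaining fits with 1 library left out their adjusted p was 0.0735 to 0.210. The call of Jak2 was also lost with RLE size factors (0.0512), library size alone (0.0621), the genes of the normalized table (0.0542) and limma-trend (0.0506), and with GC and length offsets its log2 fold change was 0.16. Tyk2, a kinase of the type I interferon receptor, did not pass (−0.22, adjusted p = 0.228), nor with the offsets (−0.09, 0.230), but did without both low-GC libraries (−0.27, 0.00639), where 26.2% of all genes passed.

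In the list of NF-κB and IL-1 genes all 13 were tested, 2 were higher and 0 were lower, with a median log2 fold change of −0.09. Over all genes tested 2.42% were higher and 3.01% lower. The 2 that passed were Il1a (log2 fold change 0.69, adjusted p = 0.000695 from edgeR) and Il1b (0.31, adjusted p = 0.0128), cytokines that induce ELR chemokines. The call of Il1a held with any 1 library left out, and that of Il1b was lost without Pdcd1f/f replicate 2 (0.0854) or 3 (0.0605) or Pdcd1f/fLysMcre replicate 1 (0.0843). Tnf had a log2 fold change of −0.20 (adjusted p = 0.0859) and Nfkb1 one of 0.18 (0.0830). Without both low-GC libraries 3 genes of the list were higher and 6 lower, where 26.2% of all genes passed, and with GC and length offsets 4 were higher and 4 lower, where 17.9% did. Tnf (−0.22, adjusted p = 0.00417) and Nfkb1 (0.20, 0.00491) passed without both low-GC libraries, and Tnf passed with the offsets (0.0166). Of 6 proteases that trim or release CXC chemokines, 5 were tested and 0 passed in edgeR, DESeq2 or limma-trend, with 1, Mmp12, at an unadjusted p under 0.05 in edgeR. They included Adam10 with a log2 fold change of 0.15 (adjusted p = 0.256) and Mmp12, which cleaves ELR chemokines, with 0.22 (adjusted p = 0.156). Without both low-GC libraries 3 of the 5 passed, Mmp12 (0.0141) and Adam10 (0.0343) as higher and Mmp9 (0.0391) as lower. With GC and length offsets 0 of the 5 passed, with Mmp12 at 0.08 (adjusted p = 0.219), Adam10 at 0.03 (0.677) and Mmp9 at −0.02 (0.759).

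**Figure D5:**
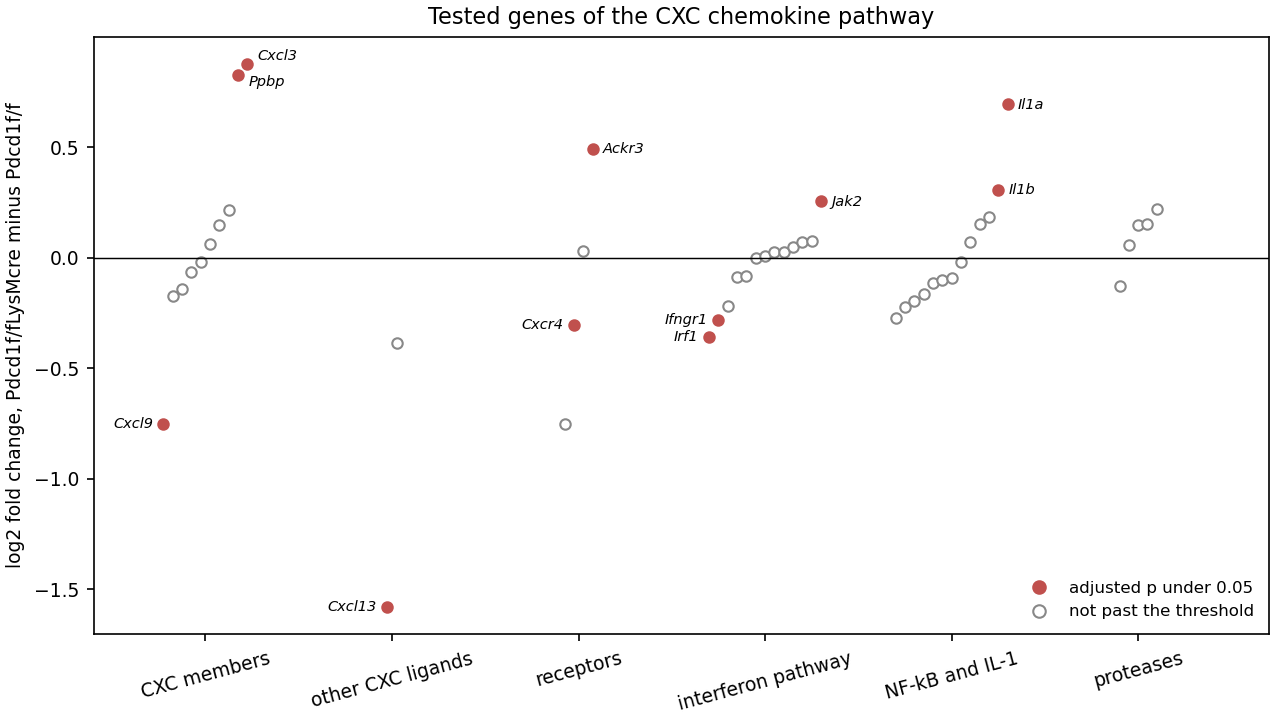
Log2 fold change of every tested gene in the CXC members, the other CXC ligands, the receptors, the interferon and NF-kB lists and the proteases, with filled points for an adjusted p under 0.05 in edgeR. Outside the CXC members the filled points are Cxcl13, Ackr3, Cxcr4, Jak2, Ifngr1, Irf1, Il1a and Il1b.

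Several macrophage markers and a few markers of other cells also passed the test. Over all genes tested 2.42% were higher and 3.01% lower. Of 10 macrophage genes 6 were lower and 0 higher, and the list summed to 7814 to 9215 CPM in Pdcd1f/f and 6534 to 7025 CPM in Pdcd1f/fLysMcre libraries. They were led by Adgre1 (log2 fold change −0.38, adjusted p = 0.00496 from edgeR), the gene of F4/80, and C1qc (−0.60, 0.00859), C1qb (−0.55, 0.0135), C1qa (−0.61, 0.0163) and Csf1r (−0.32, 0.0308). All 5 calls were lost without Pdcd1f/f replicate 2 and without Pdcd1f/fLysMcre replicate 1 (adjusted p 0.0508 to 0.172). C1qa, C1qb and Csf1r were also lost without Pdcd1f/fLysMcre replicate 2 (0.0578 to 0.1003), and Csf1r without Pdcd1f/f replicate 3 (0.119). Of 6 tested neutrophil genes 2 were lower, Mmp8 (−0.48, 0.00393) and Csf3r (−0.51, 0.00686), the second of them not without Pdcd1f/f replicate 2 (0.0524), and that list of 10 summed to 139 to 143 and 117 to 120 CPM with Ly6g and Camp at most at 3 counts. Of 8 fibroblast or tumor genes 1 was lower, Col1a2 (−1.0, 0.0121), which was lost without Pdcd1f/f replicate 3 (0.0550) or Pdcd1f/fLysMcre replicate 1 (0.0595), with sums of 75.2 to 79.6 and 71.3 to 79.4 CPM. Of 4 endothelial genes Pecam1 was lower (−0.62, 0.00340), with sums of 39.9 to 42.9 and 32.8 to 35.4 CPM. The T and NK cell list summed to 13.2 to 14.8 and 11.9 to 14.3 CPM with Cd8a and Cd8b1 at most at 3 counts, and the B cell list to 3.57 to 4.45 and 2.55 to 3.16 CPM with Cd79a and Pax5 at most at 3 counts. The epithelial list summed to 8.0 to 9.93 and 8.08 to 9.43 CPM, and the dendritic cell list to 4.71 to 6.39 and 6.04 to 7.66 CPM with Xcr1 and Siglech at most at 3 counts. In these last 4 lists 0 of 9 tested genes passed in edgeR or limma-trend. At an unadjusted p under 0.05 these included Cd79b, Zbtb46 and Flt3, and DESeq2 with Storey q-values called 1, a B cell gene. Without both low-GC libraries Cd79b (log2 fold change −0.57, adjusted p = 0.0189) was lower and Zbtb46 (0.76, 0.0379) higher, and Cd79b also passed with GC and length offsets (0.0428). In that fit without both low-GC libraries, 12.5% of all genes were higher and 13.6% lower. There 8 of 10 macrophage and 2 of 8 fibroblast or tumor genes were lower. Of 6 neutrophil genes S100a8 was higher there (0.33, 0.00302) and with GC and length offsets (0.19, 0.0403), while 2 were lower in each. With all libraries S100a8 (0.23, 0.220) and S100a9 (0.12, 0.412) did not pass in edgeR. For TAMs of other mice in the study, the methods describe a sort of live CD45+CD11b+F4/80+Ly6G− cells. Such a gate would leave out Ly6G+ neutrophils and cells without CD45. The part of the cell makeup of the sorted samples in the changes of Cxcl3, Ppbp and Cxcl9 was not tested.

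For the most abundant gene of each class, the 3 genes whose log2 CPM followed it most closely over the 6 libraries were named, as a description without a p, since all pairs share the split between the genotypes and the same libraries. For Cxcl2 they were S100a11 (Pearson r = 0.997), Srsf1 (0.995) and Zxdb (0.995), among 196 of 14453 genes with r above 0.95. For Cxcl10 they were 2310057M21Rik (0.992), Lpar1 (0.991) and Pwp1 (0.991), among 169 such genes. For Pf4 they were Tmem154 (0.990), Ifi27l2a (0.989) and Rassf3 (0.988), among 71.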

How the data were processed

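RNA-seq of TAMs was analysed in 3 libraries per genotype. Per the labels, 400 ng of total RNA per sample was made into stranded polyA libraries and sequenced as paired-end reads of 42 nt. The authors checked reads with FastQC 0.11.5, trimmed them with cutadapt 2.5, aligned them to GRCm38 with STAR 2.7.3a and counted them per Ensembl gene with featureCounts (Subread 1.6.2), and deposited these raw counts. Strand and multi-mapping settings of the counting are not given in the sources used here. The deposited normalized signal, for 16552 genes, equals the counts divided by 1 DESeq2 size factor per library (recomputed with DESeq2 1.42.0, differences under the printed digits). No sample column was left out, and no row of the count table lacked a gene ID.

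Genotype and replicate came from the labels. Counts were tested with edgeR 4.0.16 in R 4.3.3 (filterByExpr with a minimum count of 10 and a total of 15, TMM, robust glmQLFit, two-sided glmQLFTest), with Benjamini-Hochberg adjustment over 14469 genes and a threshold of 0.05. The common biological coefficient of variation was 8.92%. Totals of 41833823 to 51417209 counts per library make counting error small for all members except Cxcl11 and Cxcl14. Symbols, positions and lengths came from GENCODE M21 (GRCm38), which held 14454 of the genes tested. Promoter sequences came from RefSeq (GRCm38.p6) for 8 of the 10 genes, all but Cxcl11 and Cxcl16. Exact permutation tests were two-sided, over the 20 ways to divide 6 libraries.

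The members were taken by symbol, but they and the gene lists were chosen with earlier results of these data known. Named genes are the members, up to 5 genes past the threshold per list by adjusted p, the tested neighbours past the threshold and, for the most abundant member of a class, the 3 genes with the highest correlation. All other named genes (listed genes outside that rule, defining markers and genes that overlap a member) are given for context, some of them chosen after their values were seen.

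Alternatives were RLE size factors, library size alone, no expression filter, at least 10 counts in every library, the genes of the normalized table, DESeq2 with Benjamini-Hochberg or Storey adjustment, limma-trend (limma 3.58.1) on log2(value + 1), the replicate number as a block, loess offsets on GC content and length (span 0.5), these also together with that block, every library omitted in turn, both low-GC libraries (Pdcd1f/f replicate 1 and Pdcd1f/fLysMcre replicate 2) left out, a threshold of 0.01, a fold above 1.2, and coding length for levels. On simulated counts edgeR recovered 34 of 57, 63 of 69 and 72 of 74 genes changed by 0.5, 1 and 2 on the log2 scale among 14267 tested, with 8 false calls of 177. The simulation gave every gene the common variation and held no GC trend between libraries. It therefore does not measure false calls that come from that trend or from genes of larger variation.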

Additional observations from a re-analysis of the deposited data

How the results depend on the processing

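Over 20 alternative fits of each of the 10 genes, 188 of 200 values kept their direction and their side of the threshold. Cxcl3, Ppbp and Cxcl9 passed in all 20, with log2 fold changes of 0.77 to 0.90, 0.75 to 0.87 and −0.85 to −0.70. In 10 values the gene passed only under the alternative. These were Cxcl10 in 6, Pf4 in 3 and Cxcl2 in 1. Cxcl11 turned to −0.0270 with the GC and length offsets and to −0.0283 when the replicate block was added, and the cause was not tested. The count of CXC genes higher was 4 rather than 2 without both low-GC libraries, where 12.5% of all genes were higher. The count lower was 2 rather than 1 there and with the offsets (2 also with the offsets and replicate block), where 13.6%, 9.06% and 9.19% of all genes were lower.

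Counts over all genes moved more, from 350 higher and 436 lower of 14469. The number tested was 14354 to 14870 in the other fits, except 26637 with no expression filter, 13164 with at least 10 counts in every library, 12693 with DESeq2 and the full normalized table where it or limma-trend was used. They were 884 and 1067 with no expression filter, 743 and 774 with DESeq2 and Benjamini-Hochberg adjustment, 983 and 1007 with Storey q-values, 1285 and 1309 with the offsets, 1288 and 1328 with the offsets and replicate block, 63 and 130 for a fold above 1.2, 109 and 174 at 0.01, and 1801 and 1956 without both low-GC libraries. With 1 library left out they ranged from 82 to 1478 higher and from 139 to 1703 lower, the highest without Pdcd1f/f replicate 1. The replicate numbers did not pair the libraries (correlations of deviations −0.0132, −0.0970 and 0.220), and the replicate block gave 460 higher and 567 lower with the same calls among the 10 genes. For the 22 listed or neighbouring genes past the threshold 335 of 440 values kept their call and 105 lost it, with no change of direction.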
